A study of Mus musculus with 4 samples.

Results

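The genes described here encode the MHC class II antigen-presenting machinery: H2-Aa, H2-Ab1, H2-Eb1, Cd74, H2-DMa, H2-DMb1, H2-DMb2, H2-Oa, H2-Ob and Ciita. Their probes were found by symbol, as those that the platform annotation gives to 1 of these 10 genes alone. This gave all 10 genes, among 13954 with a probe of their own, and 26 of the 28845 probes on the array, including 25 of the 27870 probes with a value on every array. The exception was 1 Ciita probe with no value on the atherogenic high-fat 6-week array. Liver RNA of male C57Bl/6J mice was amplified and hybridised to 2-colour oligonucleotide arrays. The Cy5 channel carried the diet RNA: the atherogenic diet combined with a high-fat diet, sampled at 24 and at 6 weeks, and the plain atherogenic diet, sampled at the same times. The Cy3 channel carried liver RNA of male C57Bl/6J mice on standard chow for 24 weeks on both 24-week arrays and for 6 weeks on the high-fat 6-week array, with no duration of chow given for the plain 6-week array. The composition of the diets, the number of mice behind an RNA, and whether arrays shared a chow sample are not stated in the labels.

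Each condition was hybridised once, always with the same dyes. A single condition thus has no replicate error, and a probe's preference for a dye cannot be told apart from an effect of diet. All values are log2 ratios of diet over chow. A log2 ratio of 1 is a 2-fold difference if the deposited values are logarithms to base 10, which was inferred from their spread. The median ratio over all probes lay between -0.06 and 0.02 on the 4 arrays, and the SD was narrower on the high-fat arrays (0.39 and 0.37 at 24 and 6 weeks) than on the plain ones (0.46 and 0.53). A ratio gives no level within a sample, so neither the levels of different genes nor the liver label could be checked. In bulk liver RNA, more cells that carry class II and more class II RNA per cell cannot be told apart.

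MHC class II molecules carry peptides from the endosomes of antigen-presenting cells to CD4 T cells. An alpha and a beta chain form the peptide groove, encoded by H2-Aa and H2-Ab1 for the mouse I-A molecule, while H2-Eb1 encodes the beta chain of I-E. New chains assemble with the invariant chain, Cd74, which blocks the groove until endosomal proteases trim it. H2-DM, the product of H2-DMa with H2-DMb1 or H2-DMb2, then exchanges the remaining fragment for peptide, and H2-DO, the product of H2-Oa and H2-Ob, restrains H2-DM, mainly in B cells. The genes other than Ciita are known to share a promoter module of X and Y boxes, bound by the RFX and NF-Y complexes. On it the coactivator CIITA, the product of Ciita, assembles. In the liver, Kupffer cells, other macrophages, dendritic cells and B cells are known to carry class II, and hepatocytes normally do not.

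Promoter stretches with letters of this module are shown as a sequence feature that several genes of this set share apart from their annotation. RefSeq (GRCm38.p6) stretches from 250 bases before to 50 bases after a transcript start were at hand for 7 of the 10 genes, as 8 stretches, since H2-DMa had 2. H2-Ab1, Cd74 and Ciita had none in the table used. Below, capitals mark letters found by search, which were chosen after the sequences had been seen: GNAAC for the X box, ATGATGC for the adjoining X2 region, and TGATTGG for the Y box. All lie on chromosome 17, and each stretch of 77 bases reads 5′ to 3′ toward the transcript start.
H2-Aa, chr17:34287852-34287928, minus strand: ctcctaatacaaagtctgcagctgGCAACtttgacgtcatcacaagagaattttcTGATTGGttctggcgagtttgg
H2-Eb1, chr17:34305751-34305827, plus strand: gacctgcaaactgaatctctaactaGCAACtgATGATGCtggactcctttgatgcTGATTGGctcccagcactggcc
H2-DMb1, chr17:34153073-34153149, plus strand: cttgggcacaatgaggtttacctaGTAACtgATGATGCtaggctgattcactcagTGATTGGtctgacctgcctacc
H2-DMb2, chr17:34145102-34145178, plus strand: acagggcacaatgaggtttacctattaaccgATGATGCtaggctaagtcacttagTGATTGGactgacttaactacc
H2-Oa, chr17:34092279-34092355, plus strand: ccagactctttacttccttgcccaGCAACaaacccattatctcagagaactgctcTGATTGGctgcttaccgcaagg
H2-Ob, chr17:34238791-34238867, plus strand: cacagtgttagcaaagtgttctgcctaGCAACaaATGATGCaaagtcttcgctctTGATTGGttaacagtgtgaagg
H2-Eb2, chr17:34325518-34325594, plus strand: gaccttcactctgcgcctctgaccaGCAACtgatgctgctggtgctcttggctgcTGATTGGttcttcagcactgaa

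The Y box letters TGATTGG stood in 6 of the 8 stretches, between 45 and 92 bases before the start, against 7.82% of all 32851 promoter stretches searched on both strands. GNAAC, which alone occurs in 84.8% of all stretches, lay 28 to 31 bases before the Y box in H2-Aa, H2-Eb1, H2-DMb1, H2-Oa and H2-Ob. The combination, with GNAAC starting 20 to 45 bases before TGATTGG on the same strand, occurred in 0.332% of all stretches. ATGATGC, found in 2.46% of all stretches, stood in H2-Eb1, H2-DMb1, H2-DMb2 and H2-Ob. As the letters were chosen with these stretches seen, the shares over all stretches are a description and no test of enrichment. The stretches of H2-DMb1 and H2-DMb2, close copies of each other, had the same base at 65 of 77 aligned positions. H2-Eb2, a class II beta chain gene outside the set, carries the same X and Y letters and was added with its probe value known. That value is given further on. Whether these letters bear on the ratios was not tested. No match in these windows says only that the letters are not there, as in both stretches of H2-DMa, which held neither TGATTGG nor ATGATGC.

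The first comparison asks which class II probes differed from chow over both diets and both durations. Of the 25 probes tested, 15 rose, against 5.32% of all probes tested, and none fell, against 5.01% (limma, mean of the 4 arrays against 0, adjusted p under 0.05). The rises belonged to the chains that bind peptide (11 of 13 probes), the invariant chain (2 of 3) and H2-DM (2 of 5). H2-Eb1, placed with the chains that bind peptide by gene family, gave 7 of those 13 probes and 6 of their rises. No probe of H2-Oa, H2-Ob or Ciita passed. The median mean ratio of the 25 probes was 1.36, beside -0.01 over all probes tested. In all, 20 of the 25 lay above chow on every array, as did 19% of all probes, and 11 were at least 2-fold higher than chow on every array, as were 0.305% of all probes. These 11 were 5 probes of H2-Eb1, 4 of H2-Ab1 and 1 each of H2-Aa and Cd74. Several of the counted probes thus report the same gene.

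**Figure D1:**
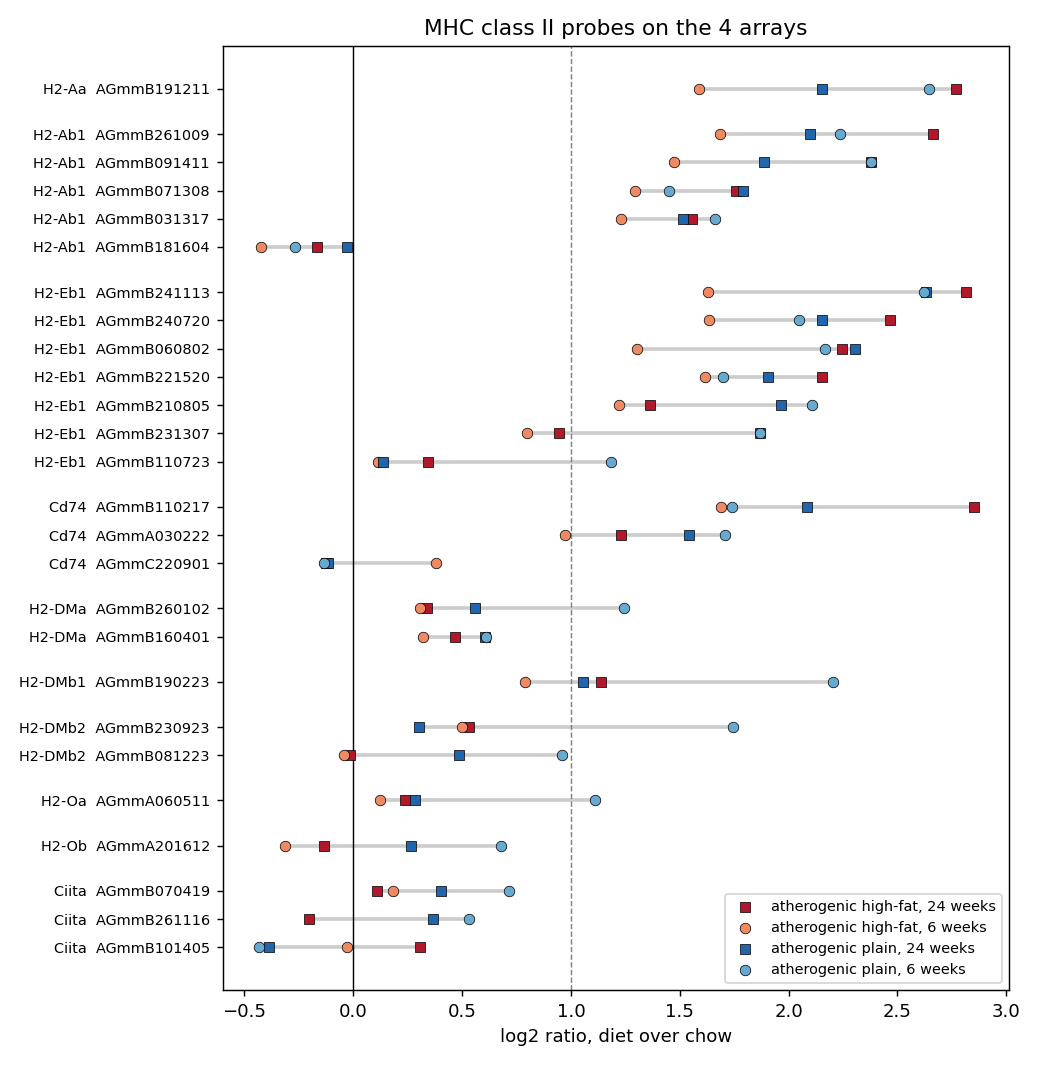
Log2 ratio of diet over chow for each of the 26 class II probes (rows, gene and probe name) on the 4 arrays (points, 1 array each), with a grey bar from the lowest to the highest array, a solid line at no difference and a dashed line at 2-fold. H2-Aa and most probes of H2-Ab1 and H2-Eb1 lie beyond the dashed line on every array, while the probes of H2-Oa, H2-Ob and Ciita lie between -0.31 and 0.31 on the high-fat arrays.

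H2-Aa, the alpha chain of I-A, has 1 probe. Its ratio was 2.77 at 24 weeks and 1.59 at 6 weeks with high fat, and 2.15 at 24 weeks and 2.65 at 6 weeks with the plain diet. The value was lowest on the high-fat 6-week array and exceeded 2-fold on all 4. Averaged over the arrays it rose 4.89-fold (log2 mean 2.29 ± 0.20, SE from limma over 4 arrays, adjusted p = 0.00171) and ranked 13th of all probes tested.

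H2-Ab1, the beta chain that pairs with H2-Aa, has 5 probes, which disagreed. Probe AGmmB261009 stood at 2.66 and 1.68 with high fat at 24 and 6 weeks and at 2.10 and 2.24 with the plain diet, a mean rise of 2.17 ± 0.16 (adjusted p = 0.00103). Probe AGmmB091411 stood at 2.38 and 1.47 with high fat and at 1.89 and 2.38 with the plain diet, in the same order of arrays. These follow H2-Aa closely, with the lowest value on the high-fat 6-week array. AGmmB071308 and AGmmB031317 rose less, with means of 1.57 and 1.49 and every array between 1.23 and 1.79. The remaining probe, AGmmB181604, was at -0.17 and -0.43 with high fat and at -0.03 and -0.27 with the plain diet, below chow on all 4 arrays, and did not pass (mean -0.22, adjusted p = 0.203). Probe means of this gene thus spanned 2.39 log2 units. The probe sequences were not used here, and why this probe differs was not tested.

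H2-Eb1, the beta chain of I-E, has 7 probes, of which 6 rose. AGmmB241113 had the largest mean of all class II probes, 2.42 ± 0.20 (adjusted p = 0.0014), with 2.81 and 1.63 with high fat at 24 and 6 weeks and 2.63 and 2.62 with the plain diet. AGmmB240720, AGmmB060802 and AGmmB221520 had means of 2.08, 2.01 and 1.84, with every array between 1.30 and 2.46. AGmmB210805 stood at 1.37 and 1.22 with high fat and at 1.97 and 2.11 with the plain diet (mean 1.67 ± 0.17). AGmmB231307 stood at 0.94 and 0.80 with high fat and at 1.87 on both plain arrays (mean 1.37 ± 0.21, adjusted p = 0.0111). In these last probes both high-fat values lay below both plain values, which was not so for the other H2-Eb1 probes that rose. AGmmB110723 was high on 1 array only, at 0.34 and 0.11 with high fat and at 0.14 and 1.18 with the plain diet at 24 and 6 weeks, and did not pass (mean 0.44, adjusted p = 0.174). The call of AGmmB231307 was lost without the plain 24-week array (adjusted p = 0.0701).

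The partner of the H2-Eb1 chain is encoded by H2-Ea, which RefSeq annotates as a transcribed pseudogene in this reference strain. C57BL/6 mice are known to lack the I-E molecule because the promoter of this gene is deleted. H2-Eb1 is thus counted with the chains that bind peptide by family only, as no I-E forms in these mice. The probes of H2-Ea, named outside the naming rule as a contrast, stood between -0.01 and 0.41 on the 4 arrays. Their means of 0.23 and 0.20 did not pass (adjusted p = 0.2 and 0.203). H2-Eb2, whose promoter stretch is printed above, was between -0.34 and -0.07 (mean -0.18, adjusted p = 0.258).

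Cd74, the invariant chain, has 3 probes, which also disagreed. AGmmB110217 was at 2.85 and 1.69 with high fat at 24 and 6 weeks and at 2.08 and 1.74 with the plain diet, a mean rise of 2.09 ± 0.20 (adjusted p = 0.00226). Its value at 24 weeks exceeded that at 6 weeks in both diets. AGmmA030222 was at 1.23 and 0.97 with high fat and at 1.54 and 1.71 with the plain diet (mean 1.36 ± 0.14, adjusted p = 0.00297), with both high-fat values below both plain ones. AGmmC220901 was at -0.12 and 0.38 with high fat and at -0.12 and -0.14 with the plain diet, with a mean of 0.0008 (adjusted p = 0.997), and turned negative (-0.13) without the high-fat 6-week array.

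H2-DM, the peptide exchanger, was less raised and less evenly. H2-DMb1 stood at 1.14 and 0.79 with high fat at 24 and 6 weeks and at 1.06 and 2.20 with the plain diet, a mean of 1.30 ± 0.22 (adjusted p = 0.0162). A single array, plain 6 weeks, was far above the other three. H2-DMa rose by its probe AGmmB160401, at 0.47 and 0.32 with high fat and at 0.60 and 0.61 with the plain diet (mean 0.50 ± 0.10, adjusted p = 0.0229). Its other probe, AGmmB260102, at 0.34 and 0.31 with high fat and 0.56 and 1.24 with the plain diet, had the larger mean, 0.61 ± 0.17, but did not pass (adjusted p = 0.0633).

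The probes of H2-DMb2, the close copy of H2-DMb1, did not pass (adjusted p = 0.0836 and 0.253). AGmmB230923 stood at 0.53 and 0.50 with high fat and at 0.30 and 1.74 with the plain diet. AGmmB081223 stood at -0.02 and -0.04 with high fat and at 0.49 and 0.96 with the plain diet. Whether these probes tell the copies apart was not tested. Across all 5 H2-DM probes the plain 6-week array was the highest. Calls were lost in some alternatives. H2-DMb1 did not pass without the plain 24-week array (adjusted p = 0.0796) or with arrays of 1 diet as a random block (0.0872), and H2-DMa did not pass with that block (0.104) or without the plain 6-week (0.0533), plain 24-week (0.112) or high-fat 24-week array (0.0757).

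H2-DO, which restrains H2-DM, did not pass for either chain. H2-Oa stood at 0.24 and 0.12 with high fat at 24 and 6 weeks and at 0.29 and 1.11 with the plain diet (mean 0.44 ± 0.17, adjusted p = 0.15). H2-Ob stood at -0.14 and -0.31 with high fat and at 0.27 and 0.68 with the plain diet (mean 0.12 ± 0.17, adjusted p = 0.665). H2-Ob was below chow on both high-fat arrays and above it on both plain ones, and its mean turned to -0.06 without the plain 6-week array.

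Ciita, the coactivator, has 3 probes, none of which passed. AGmmB070419 was at 0.11 and 0.18 with high fat at 24 and 6 weeks and at 0.40 and 0.71 with the plain diet (mean 0.35 ± 0.12, adjusted p = 0.118). AGmmB261116 was at -0.20 with high fat at 24 weeks and at 0.37 and 0.53 with the plain diet, and had no value at 6 weeks with high fat, so it was not tested. AGmmB101405 ran the other way, at 0.31 and -0.03 with high fat and at -0.39 and -0.44 with the plain diet (mean -0.13, adjusted p = 0.573). The first of these probes was highest and the last lowest on the plain 6-week array.

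Taken array by array, which allows no test, 13 of the 25 probes were at least 2-fold above chow with high fat at 24 weeks and 11 with high fat at 6 weeks. With the plain diet the counts were 14 at 24 weeks and 18 at 6 weeks. Among all probes that fold was reached by 1.04% and 0.8% with high fat at 24 and 6 weeks, and by 1.93% and 4.03% with the plain diet. H2-Aa lay at the 99.97th and 99.8th percentile of all probes on the high-fat arrays at 24 and 6 weeks, and at the 99.89th and 99.94th on the plain ones. AGmmB110723 of H2-Eb1 ranged from the 63.77th percentile with high fat at 6 weeks to the 97.66th with the plain diet at 6 weeks.

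**Figure D2:**
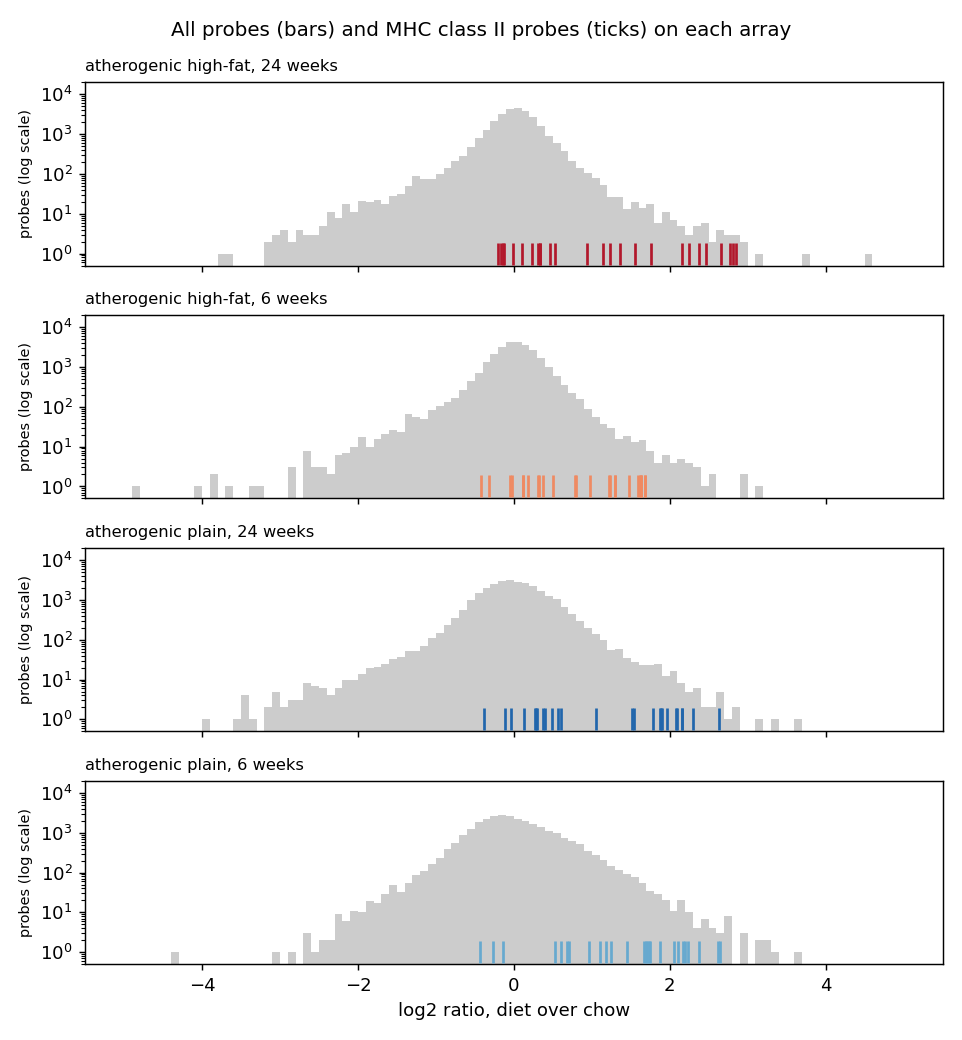
Number of all probes (grey bars, 0.1 log2 unit wide, log scale) by log2 ratio of diet over chow on each of the 4 arrays, with the class II probes as coloured ticks at their own ratio. On each array a group of ticks sits in the upper tail, reaching 2.85 with high fat at 24 weeks and 1.69 with high fat at 6 weeks, while other ticks lie within the bulk near 0.

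The class II probes were next compared between the high-fat and the plain atherogenic diet, with duration as a term. Of the 25 probes, 4 were lower with high fat, against 7.07% of all probes, and 1 was higher, against 8.75%. Lower were AGmmB231307 and AGmmB210805 of H2-Eb1, by -1.0 ± 0.14 (adjusted p = 0.0164) and -0.74 ± 0.15 (0.0274), AGmmB081223 of H2-DMb2, by -0.75 ± 0.17 (0.0335), and H2-Ob, by -0.70 ± 0.18 (0.0437). Higher was AGmmB101405 of Ciita, by 0.55 ± 0.15 (0.0499). The mean ratio of H2-Ob was -0.22 with high fat and 0.47 with the plain diet. That of AGmmB231307 was 0.87 with high fat and 1.87 with the plain diet. For H2-Aa the difference was -0.22 ± 0.35 (adjusted p = 0.672), made of 0.62 at 24 weeks and -1.06 at 6 weeks. An unadjusted p under 0.05 was found for 8 of the 25 probes and for 10244 of all 27870.

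These calls depended on how arrays of different spread were compared. With arrays scaled to a common spread, 4 probes were higher and 3 lower with high fat, and 3 of the calls above were kept, while 19.5% of all probes were called (2423 higher and 3020 lower). The difference for AGmmB210805 was then -0.06 (adjusted p = 0.74), while those of AGmmB231307 (-0.47), AGmmB081223 (-0.67) and H2-Ob (-0.71) still passed. With arrays centred on their medians 3 were lower and none higher, and 11% of all probes were called. Without a term for duration 1 of the 5 calls was kept, that of AGmmB231307. Leaving out an array also needs that term dropped: neither a class II probe nor any of all probes then passed without the plain 6-week, the high-fat 6-week or the high-fat 24-week array. Without the plain 24-week array 10 class II probes were lower, where 22.2% of all probes were called, 3070 of them lower. Marker lists of other cell types moved with the same comparison. Lower with high fat were 10 of 21 hepatocyte probes and 8 of 27 macrophage and monocyte probes, with 3 and 1 higher. Over all probes 7.07% were lower and 8.75% higher. The hepatocyte median was -0.33 and -0.89 with high fat at 24 and 6 weeks, and 0.52 and 0.28 with the plain diet. Their part in the class II differences was not tested.

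Within 6 weeks, 23 of the 25 probes were lower with high fat than with the plain diet, as were 46.7% of all probes. The median difference was -0.87, beside 0.03 over all probes. Within 24 weeks 13 were lower and 12 higher, with a median difference of -0.02, beside 0.01 over all probes. The high-fat 6-week array gave the lowest value for 21 of the 25 probes and for 22.2% of all probes. These counts come from single arrays, and the chow RNA may differ between the 6-week arrays, as the plain one has no chow duration given. The counts held in part under scaling. With arrays scaled to a common spread 15 of 25 were lower with high fat at 6 weeks and 8 at 24 weeks. The high-fat 6-week array was then lowest for 11. With quantile normalization these counts were 18, 10 and 16. For H2-DM and H2-DO, 7 of 7 probes were lower with high fat at 6 weeks as deposited and 7 of 7 scaled. For the chains that bind peptide, 13 of 13 were lower with high fat at 6 weeks as deposited and 6 of 13 scaled.

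Duration was compared as 24 over 6 weeks, with diet as a term. Chow differed too: it lasted 24 weeks on both 24-week arrays and 6 weeks on the high-fat 6-week array. For the plain 6-week array its duration is not given. A difference between durations in the chow livers thus cannot be told apart from one in the diet livers. No class II probe passed in limma, nor did any of all probes tested (0% called in either direction), while an unadjusted p under 0.05 was found for 5 of the 25 probes and for 2655 of all. Without the high-fat 6-week array, and with no term for diet, 1 class II probe passed as lower at 24 weeks, where 0.98% of all probes were called. Given as values, 23 of the 25 probes were higher at 24 than at 6 weeks with high fat, as were 49.1% of all probes. The median difference was 0.26, beside -0.0033 over all probes. With the plain diet 9 of the 25 were higher, beside 51.8% of all probes. The median difference was then -0.14, against 0.02 over all probes. The opposite sign in the diets was found for 15 of the 25 probes and for 41.3% of all probes.

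The steps between durations are given by role. For the chains that bind peptide the median difference of 24 minus 6 weeks was 0.53 with high fat and 0 with the plain diet. H2-Aa was higher by 1.18 with high fat and lower by -0.50 with the plain diet, and AGmmB241113 of H2-Eb1 by 1.19 and 0.01. For H2-DM the median difference was 0.03 with high fat and -0.68 with the plain diet, and for H2-DO 0.14 and -0.62. H2-DMb1 differed by 0.35 with high fat and -1.15 with the plain diet, and H2-Oa by 0.11 and -0.82. All 7 probes of H2-DM and H2-DO were higher at 24 than at 6 weeks with high fat, and none was with the plain diet. With arrays scaled to a common spread these counts were 7 and 1. Among the 13 probes of the chains that bind peptide, 13 were higher at 24 weeks with high fat in both settings, and with the plain diet 6 as deposited and 10 when scaled. With 1 array per condition the difference between diets in the effect of duration could not be tested.

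**Figure D3:**
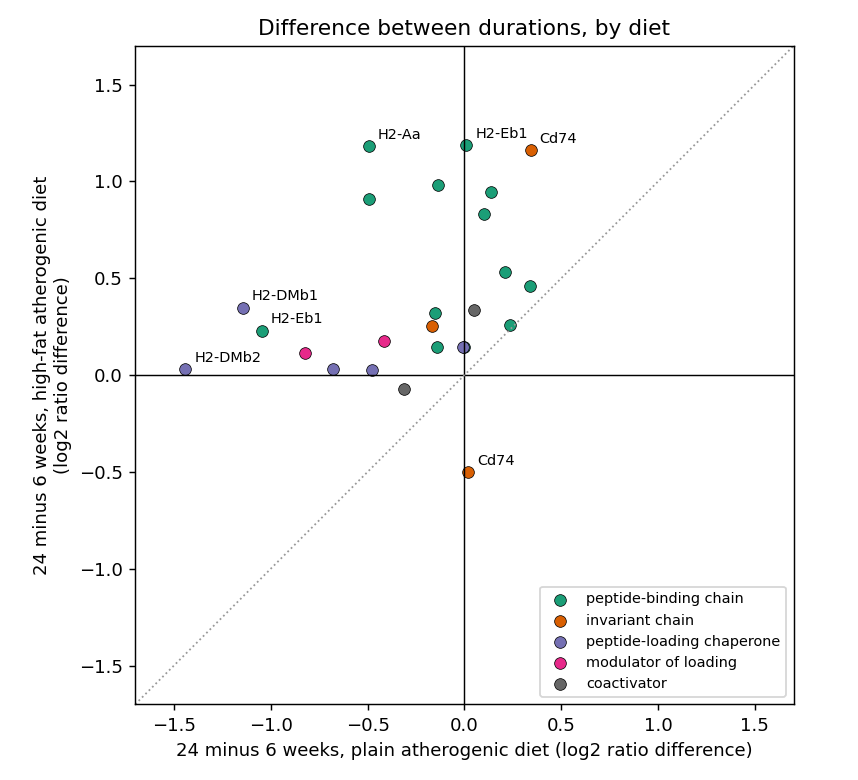
Difference of 24 minus 6 weeks in log2 ratio with the high-fat atherogenic diet (vertical) against that with the plain atherogenic diet (horizontal) for the 25 class II probes with a value on every array, coloured by role, with a dotted line of equality. Probes of H2-DM and H2-DO lie at or to the left of zero and above the horizontal line, and H2-Aa, with AGmmB241113 of H2-Eb1 and AGmmB110217 of Cd74, lies near 1.2 on the vertical axis. Each difference also holds any difference between the chow RNAs.

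Other genes of the pathway were taken from lists, counted by probe. For these lists and those that follow, the shares over all probes tested were 5.32% higher and 5.01% lower. Among the lysosomal proteins that process the invariant chain and antigen, 5 of 19 probes rose and none fell, with a median of 0.27. Ctss, the cathepsin that trims the invariant chain in antigen-presenting cells, rose by 2.32 ± 0.17 (adjusted p = 0.00104), at 2.93 and 2.12 with high fat at 24 and 6 weeks and 2.34 and 1.89 with the plain diet. The protease Ctsb rose by 0.98 on 1 of its 3 probes, the others averaging 0.44 without passing. The protease Ctsd rose by 0.84, and the thiol reductase Ifi30, which opens disulfide bonds of antigens, by 0.78. Of 26 tested probes for class II transcription factors and interferon gamma signalling, 2 rose and 1 fell, with a median of 0.15. The myeloid factors Spi1 and Irf8 rose by 0.86 ± 0.16 and 0.65 ± 0.13, and Creb1, a factor of the X2 box, fell on 1 of its 4 tested probes (-0.87 ± 0.09), while the other three averaged between -0.06 and 0.15. The subunits of the RFX complex, which binds the X box printed above, did not pass: Rfx5 was at -0.23, Rfxap at -0.12 and Rfxank at 0.03. Ifng, the main inducer of Ciita, was at -0.38 (adjusted p = 0.0539) and its target Irf1 at 0.46 (0.176); these 5 genes were named outside the rule.

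Of the genes next to the class II genes on the chromosome, 2 of 17 probes rose, those of the immunoproteasome subunits Psmb9 (0.85 ± 0.17) and Psmb8 (0.44 ± 0.10), with a list median of -0.08. Further probes of Psmb9 averaged 0.17 and -0.16 and did not pass. In the class I list 7 of 29 probes rose and none fell, with a median of 0.14: the immunoproteasome subunit Psmb10 by 1.13 and 0.75 on its probes, Psmb9 as above, and the nonclassical class I gene H2-T23 by 0.65 on 1 probe, with 0.38 on another that did not pass. Among costimulatory molecules and receptors of class II, none of 17 probes rose and 2 fell, Lag3, a class II receptor on T cells, at -0.51 and the ligand Pdcd1lg2 at -0.39, with a median of 0.04.

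Markers of cell types that carry class II, or that liver RNA can hold, are given as counts beside the class II result. Of all probes tested 5.32% rose and 5.01% fell. The lowest counts below lie near those shares and are not read as results about those cell types. Of 27 macrophage and monocyte probes, 14 rose, led by the complement subunit C1qb (1.74), Gpnmb (1.66) and the adaptors Tyrobp (1.62) and Fcer1g (1.59), and Vsig4, a Kupffer cell receptor, fell (-1.33). The median was 0.42 and 0.48 with high fat at 24 and 6 weeks and 0.69 and 0.84 with the plain diet. None of 20 B cell probes rose, and Pax5 (-0.69) and 1 probe of Fcer2a (-1.41) fell, another Fcer2a probe averaging 0.03. Of 16 dendritic cell probes Bst2 (0.73) and Ccr7 (0.50) rose and Batf3 (-0.85) fell. Of 20 T cell and natural killer cell probes Nkg7 (0.46) rose and Zap70 (-0.70) fell. The median of these 3 lists lay between -0.13 and 0.07 on every array. Of 17 sinusoidal endothelial probes 1 of Pecam1 (0.48) rose, another Pecam1 probe averaging -0.02. Of 11 bile duct probes 4 rose, Tspan8 (2.19), Anxa5 (1.32), Bicc1 (1.11) and Krt23 (0.92). Of 21 hepatocyte probes Apoh (1.09) rose and 1 probe of Alb (-0.98) fell, the other Alb probes averaging -0.32 without passing. The share of each cell type in the class II ratios was not tested.

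**Figure D4:**
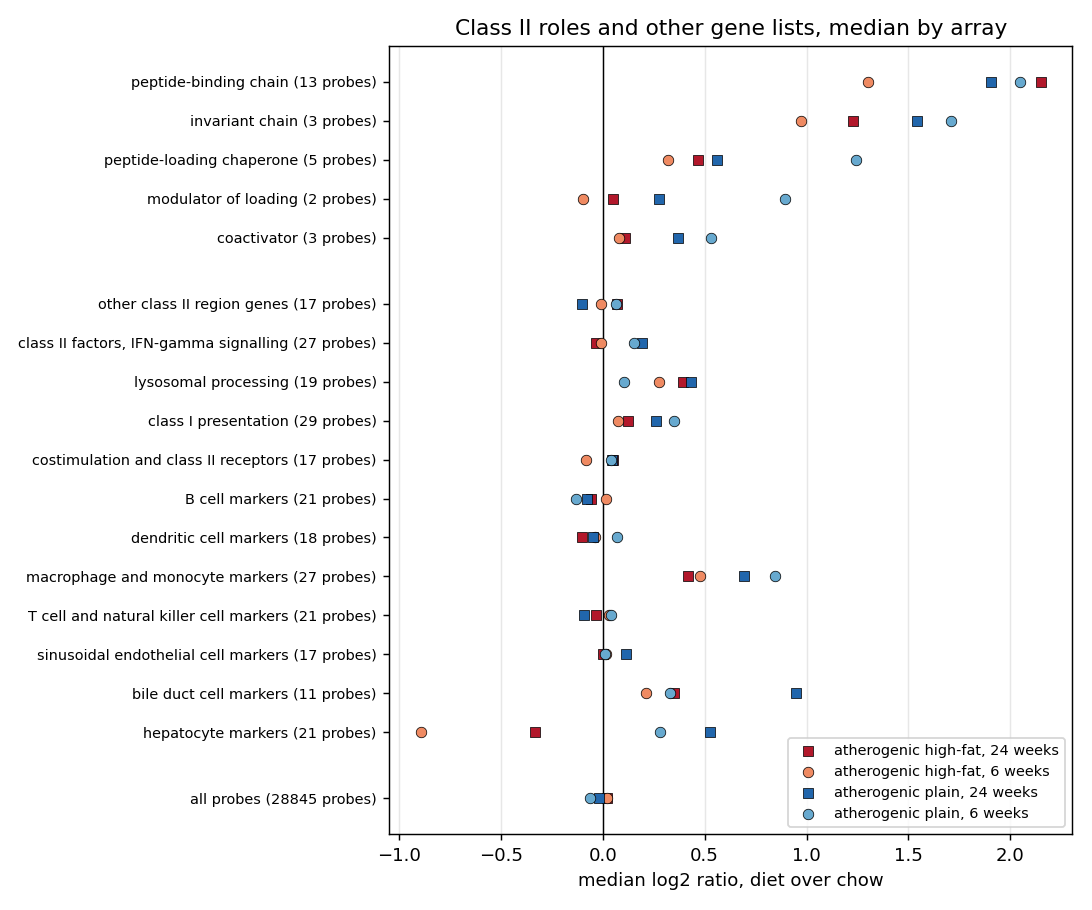
Median log2 ratio of diet over chow of the probes of each class II role, of each other gene list and of all probes (rows, number of probes in brackets) on the 4 arrays (points, 1 array each). The medians of the chains that bind peptide (H2-Aa, H2-Ab1 and H2-Eb1) lie between 1.30 and 2.15. Those of the macrophage and monocyte list lie between 0.42 and 0.84, and those of the B cell list between -0.13 and 0.01.

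Outside the set, the 5 genes whose ratios on the 4 arrays lay closest to those of H2-Aa, by Euclidean distance in log2 units, were Lcn2 (0.49), S100a8 (0.62), Ly6d (0.76), Tspan8 (0.77) and Lyz1 (0.86). Within the set, AGmmB261009 of H2-Ab1 (0.44) and AGmmB241113 of H2-Eb1 (0.48) were closer than any of these, AGmmB091411 of H2-Ab1 was at 0.56 and AGmmB110217 of Cd74 at 0.92. H2-Oa, H2-Ob and the tested Ciita probes were at 3.80 to 4.96. Far as well were AGmmB110723 of H2-Eb1 (3.78), AGmmC220901 of Cd74 (4.77) and AGmmB181604 of H2-Ab1 (5.09), the farthest member probe. The likeness rests on 4 arrays, and each distance is a description.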

How the data were processed

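The authors' deposited values are log10 ratios of Cy5 (diet) over Cy3 (chow), an assignment made from the dyes in the labels. Per the labels and the design text, image analysis used GenePix Pro 4.1, and LOWESS normalization was done by the authors in GeneSpring 7.2. Background correction, spot filters, further centring and the log base are not stated there. Base 10 was inferred: the interquartile range of the plain 6-week array amounts to a 52.4% difference in ratio with it, and to 13.5% with base 2. Median deposited log10 values were 0.006 and 0.006 on the high-fat arrays (24 and 6 weeks), and -0.005 and -0.019 on the plain ones.

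Values were turned into log2 and each probe was kept apart. A single gene symbol was annotated for 17637 probes and several for 64, and 11144 probes were unlisted. Of the single symbols, 17385 were updated by gene ID to the GRCm38.p6 RefSeq table, and 252 kept the annotation's symbol. No class II value lay within 0.003 (log10) of a value repeated by many probes on an array. Tests used limma 3.58.1 in R 4.3.3 (lmFit, eBayes, two-sided), with Benjamini-Hochberg adjustment over all 27870 probes with a value on every array. The diet effect was the 4-array mean tested against 0. The effects of high fat and of duration came from a joint fit with no interaction, which leaves 1 residual degree of freedom. The p-values reflect how far the 4 conditions scatter and hold no spread among animals. Fits were run on simulated data with known changes and independent errors of equal spread on every array. These arrays differ in spread, so that run checks the code and not these results. Alternatives were centring, scaling, quantile normalization, robust eBayes, a filter on missing values, other models, another threshold, the log base and leaving out each array.

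The members and lists were chosen with earlier results of these data known. Named were every member probe, up to 4 probes of each other list in each direction that passed for diet over chow, and the 5 genes nearest to H2-Aa. Other genes are said to be outside this rule, or were named after their values were seen.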

Additional observations from a re-analysis of the deposited data

Results flagged for a closer look

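For 2 probes both high-fat arrays lay below chow and both plain arrays above it. H2-Ob averaged -0.22 with high fat and 0.47 with the plain diet, a difference of -0.70. AGmmB081223 of H2-DMb2 averaged -0.03 with high fat and 0.72 with the plain diet, a difference of -0.75. In both cases the high-fat term passed, as given above, although not in every alternative.

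For 3 probes the step between durations was at least 0.3 log2 units in each diet and of opposite sign. H2-Aa differed by 1.18 between 24 and 6 weeks with high fat and by -0.50 with the plain diet, 1.68 apart. AGmmB091411 of H2-Ab1 differed by 0.91 with high fat and -0.49 with the plain diet, 1.40 apart. H2-DMb1 differed by 0.35 with high fat and -1.15 with the plain diet, 1.49 apart. These differences between diets were not tested, since each rests on 4 single arrays. Any step between durations in the chow livers is part of each value as well. With arrays scaled to a common spread the plain-diet step of H2-Aa was -0.11, that of AGmmB091411 -0.15 and that of H2-DMb1 -0.75.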

How the results depend on the processing

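For diet over chow the count of 15 rising class II probes moved between 13 and 21 under the alternatives that kept all 4 arrays. It moved between 12 and 15 when an array was left out. With terms for high fat and duration, 21 were higher and 1, AGmmB181604 of H2-Ab1, was lower. The 15 were among the calls in every alternative that kept 4 arrays, except with diet as a random block (13). Counts over all probes moved more: from 2880 to 5134 at an adjusted p under 0.10, 10181 with terms for high fat and duration, 9213 with duration and 751 with diet as a random block, and 689, 1856 and 1516 without the plain 24-week, high-fat 6-week and high-fat 24-week array. Means that changed sign were those of H2-Ob (-0.0609 without the plain 6-week array, up to 0.270 with another left out) and AGmmC220901 of Cd74 (-0.125 without the high-fat 6-week array, up to 0.0465), neither of which passed in any of these. For high fat the count of 5 class II probes was 3 with centred arrays, 8 at an adjusted p under 0.10 and 1 without the duration term, and between 0 and 10 with an array left out and no duration term. Over all probes 4411 became 8393 at that threshold, 740 without the duration term, and 0 (without the plain 6-week, high-fat 6-week or high-fat 24-week array) to 6194 (without the plain 24-week array). For 24 over 6 weeks 1 class II probe passed without the high-fat 6-week array, between 0 and 1 in all such fits, where over all probes 273 passed without that array and 34 without the plain 6-week array. In fits with an array left out, the lone array of a group is assumed to vary like the others. The 11 probes at least 2-fold higher on every array would be 0 if the deposited values were natural or base 2 logarithms. Replicates could not be paired, since each condition was hybridised once. Arrays of the same duration or diet were matched in the fits with both terms and with blocks.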
